A study of Cricetulus griseus with 9 samples.

Results

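Cyclophilins are peptidyl-prolyl cis-trans isomerases, enzymes that help proteins fold by turning the peptide bond before proline, and they are the cellular receptors of the drug cyclosporin A. Family members work in different compartments. MicroRNAs miR-29a and miR-29b carry the same seed, the stretch near the 5′ end by which a microRNA pairs with its target transcripts, and are known for lowering transcripts of the extracellular matrix. The genes described here are Ppic (cyclophilin C), Ppib (cyclophilin B), Ppia (cyclophilin A), Ppid and Ppif, 5 of the 15557 genes in the deposited table. Ppic was chosen from its large fall against anti-miR-29a in these same libraries. Its differences from anti-miR-29a are therefore given as a description, with no test. The 4 relatives were taken by family, not by their own values.

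RNA came from CHO-K1 cells, an established Chinese hamster ovary line, 48 h after transfection with Lipofectamine RNAiMAX. One group of 3 libraries received anti-miR-29a, an inhibitor that the submitters describe as blocking both miR-29a and miR-29b-1. The other groups, again of 3 libraries each, received pre-miR-29b-1 or pre-miR-29a, synthetic precursors that supply the microRNA they are named for. All groups shared the line, the charcoal-stripped serum medium and the transfection reagent. Cells without a miR-29 reagent were not analysed here, so each difference lies between miR-29 reagents and has no untreated reference. The amount of miR-29 itself is not among the values used here. The labels say that cells were grown in triplicate but do not link each library to a culture, so the spread that p-values rest on may be technical. The series text speaks of separate experiments. If each held 1 reagent, experiment and reagent cannot be told apart. In bulk RNA, fewer cells with a transcript and less transcript per cell cannot be told apart either.

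Expression is given as FPKM, fragments per kilobase of gene model scaled for library size, as deposited. The steps between low values showed what 1 read was worth. They gave 15880000 to 18780000 implied reads per library with anti-miR-29a, 19560000 to 21840000 for the pre-miR-29b-1 libraries and 17430000 to 19950000 for the pre-miR-29a libraries. The identity of the cells was not tested against marker genes, because the files do not pair identifiers with symbols. Symbols for the genes described here were supplied with their identifiers.

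The gene models are mouse proteins aligned to the hamster assembly CriGri_1.0, and they hold coding bases only. Ppic (ENSMUSG00000024538) lies on scaffold JH000456 from 374214 to 379660, minus strand, with 516 coding bases in 5 exons. Its exons 3 and 4 are 2 bases apart, so that they form nearly 1 block. Ppib (ENSMUSG00000032383), whose protein works in the endoplasmic reticulum and helps collagen to fold, lies on JH000151 from 2297815 to 2303796, minus strand, with 651 coding bases in 5 exons. Ppic and Ppib each hold a coding exon of 94 bases. Ppif (ENSMUSG00000021868), the mitochondrial cyclophilin that acts on the permeability transition pore, lies on JH000374 from 1245839 to 1251198, plus strand, with 621 coding bases in 6 exons. Ppic, Ppib and Ppif have a single model apiece, and no other gene's exons cover any of its bases.

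The other models are of another kind. Ppia (ENSMUSG00000071866), the abundant cytosolic cyclophilin, is a single uninterrupted exon of 495 bases on JH000407 from 730064 to 730558, plus strand. Only 8.7% of the genes in the table had a single coding exon. Models of 3 other mouse genes cover bases of this exon, and 1 of them is also in the table. Ppid (ENSMUSG00000027804), a larger cyclophilin that partners the Hsp90 chaperone, is placed on JH000109 from 2619834 to 2620944, plus strand, as 2 exons of 495 and 615 bases with 1 base between them. It has 2 models with the same exons and shares bases with 1 other gene, which the table lists at 0 in all 9 libraries. Mammalian Ppia and Ppid genes are known to be split by introns, so these models may lie on intronless copies, which was not tested. Values of Ppia and Ppid are uncertain for this reason.

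**Figure D1:**
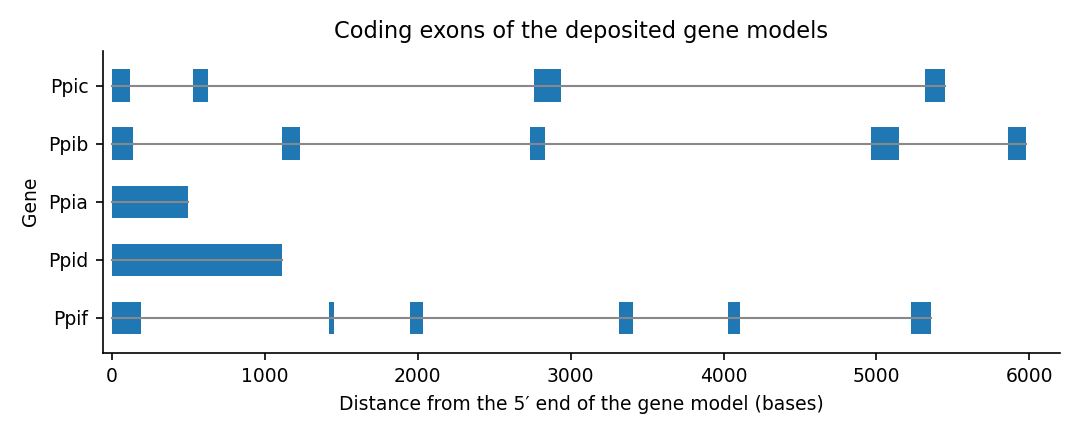
Coding exons (blocks) and the bases between them (lines) of the deposited gene models, by distance in bases from the 5′ end of each model. Ppic, Ppib and Ppif span 5447, 5982 and 5360 bases with introns, whereas Ppia is 1 exon of 495 bases and the 2 exons of Ppid are 1 base apart.

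Ppic, a cyclophilin of the secretory pathway, was far lower with either precursor than with anti-miR-29a. The anti-miR-29a libraries held 242.8, 237.0 and 245.2 FPKM. The pre-miR-29b-1 libraries held 16.5, 17.1 and 17.2 FPKM. The pre-miR-29a libraries held 18.4, 18.2 and 18.0 FPKM. All 6 precursor libraries sat far below all 3 anti-miR-29a libraries, an order that 29.2% of all tested genes showed, and values within a group were close together. The group means were 241.7 ± 4.24 FPKM (SD, n = 3) for anti-miR-29a, 16.95 ± 0.41 FPKM for pre-miR-29b-1 and 18.2 ± 0.24 FPKM for pre-miR-29a. Ppic was thus 14.3-fold lower with pre-miR-29b-1 and 13.3-fold lower with pre-miR-29a by ratio of FPKM means. With anti-miR-29a it stood at the 90.5th to 91.0th percentile of the genes tested in a library. With the precursors it stood between the 26.8th and the 31.3rd.

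**Figure D2:**
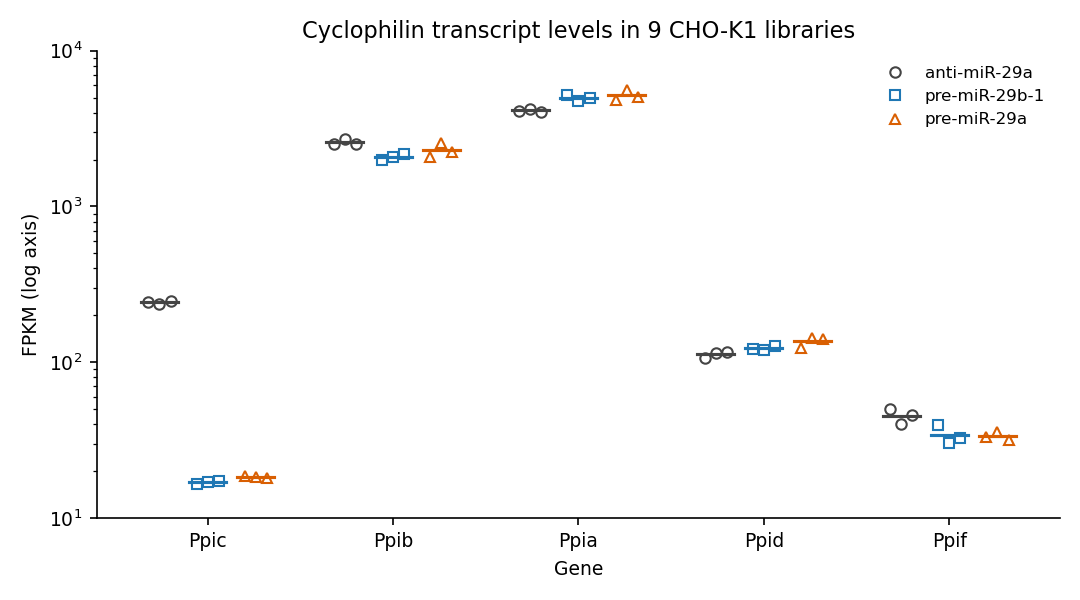
FPKM (log axis) of each cyclophilin in each of the 9 libraries, as open symbols by group, with a bar at the group mean. Ppic stands at 237.0 to 245.2 FPKM in the anti-miR-29a group and at 16.5 to 18.4 FPKM with the precursors, while the mean of a relative with a precursor differs from that with anti-miR-29a by at most 1.35-fold (Ppif).

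Reads behind these values limited the precision at the low end. Ppic rested on 1189 to 1455 implied reads in an anti-miR-29a library, but on 106 to 114 in a pre-miR-29b-1 library and 99 to 115 in a pre-miR-29a library. Counting alone would give an SD of 9.48% of the mean with pre-miR-29b-1, where the libraries showed 2.42%. With pre-miR-29a the values were 9.58% and 1.31%. The precursor libraries were therefore closer together in Ppic than counting error on its own would usually leave them, and the spread between libraries understates the uncertainty of this gene. From the summed reads, the ratio of anti-miR-29a to pre-miR-29b-1 was 14.3 with an exact 95% interval of 12.75 to 15.99. For pre-miR-29a it was 13.3 with an interval of 11.85 to 14.89. These intervals cover counting error only and do not allow for the choice of Ppic by its fall.

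**Figure D3:**
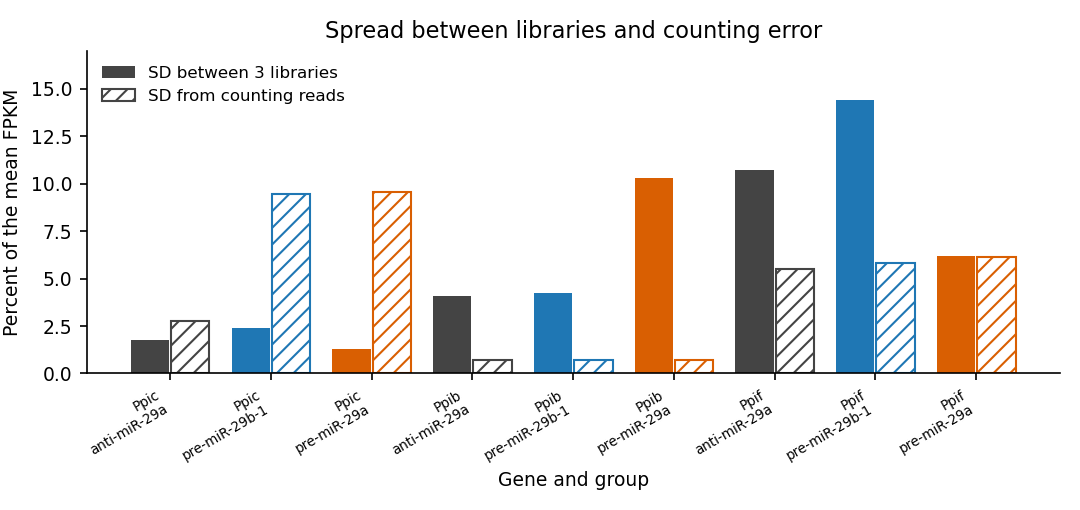
SD between the 3 libraries of a group (filled bars) and the SD that counting the implied reads would give (hatched bars), both as a percent of the mean FPKM, for the genes whose models share no bases. Filled bars are shorter than hatched ones for Ppic, at 1.31% to 2.42% against 2.74% to 9.58%, and longer for Ppib.

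On the log2(FPKM + 1) scale, which understates changes of low genes, Ppic differed from anti-miR-29a by -3.76 (SE 0.044) with pre-miR-29b-1 and by -3.66 (SE 0.044) with pre-miR-29a. The anti-miR-29a libraries are shared by both comparisons. The reads alone gave a counting SE of 0.082 and 0.083 log2 units, larger than the fitted ones. With pre-miR-29b-1 no other of the 9504 genes tested had a lower difference, and the next stood at -3.06. With pre-miR-29a 1 gene had a lower difference than Ppic, at -4.69 (SE 1.09, adjusted p 0.00432, limma). That gene ranged from 0.023 to 38.9 FPKM over the 9 libraries, and the next after Ppic among genes past the threshold stood at -2.90. For both precursors together, the gene with the lower difference again lay below Ppic, at -3.85 (SE 0.945, adjusted p 0.00532, limma) against -3.71. Ppic was therefore the strongest fall with pre-miR-29b-1. By size it was the second strongest with pre-miR-29a and with both precursors together. All tested genes had a median of -0.006 for pre-miR-29b-1 and of -0.016 for pre-miR-29a.

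**Figure D4:**
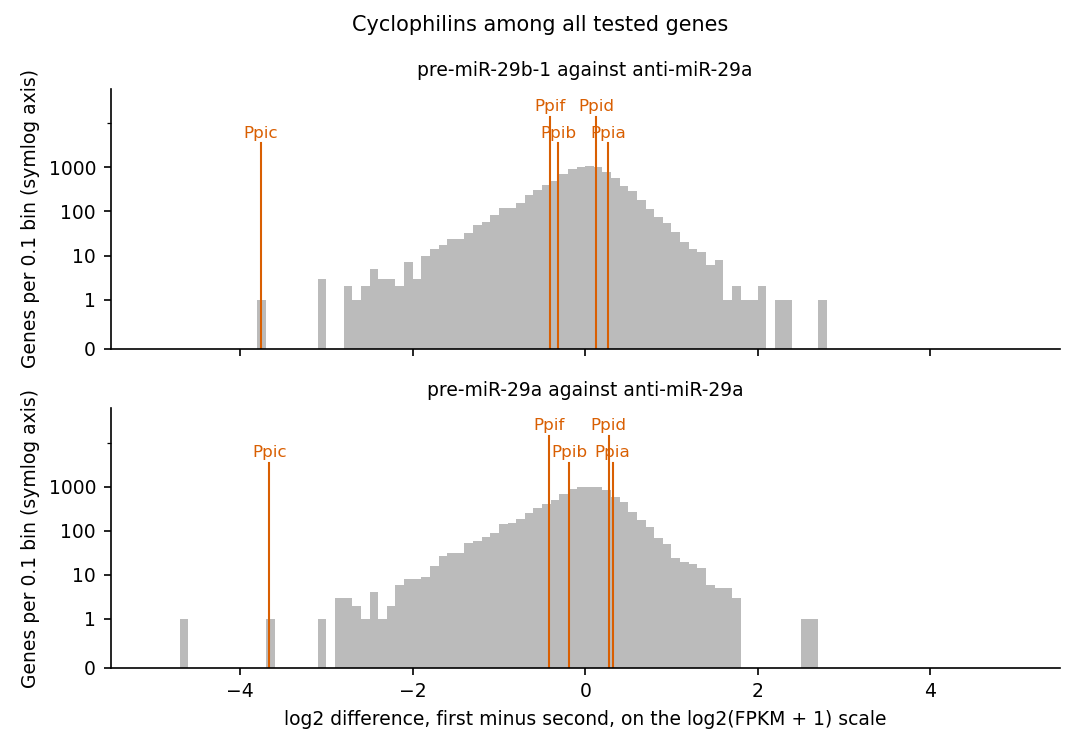
Number of tested genes per 0.1 log2 bin (grey, symmetric log axis) for each precursor against anti-miR-29a, with lines at the cyclophilins. Ppic stands at -3.76 and -3.66, beyond nearly all of the 9504 genes, while Ppib, Ppia, Ppid and Ppif lie between -0.42 and 0.32, inside the bulk.

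The relatives moved little and not in 1 direction. Against anti-miR-29a, 2 of the 4 relatives fell and 1 rose with pre-miR-29b-1 (limma, adjusted p under 0.05 over all tested genes), where 29.4% of all tested genes fell and 25.8% rose. With pre-miR-29a, 1 relative fell and 2 rose, where 30.9% of all tested genes fell and 27.5% rose. These shares of the 4 relatives rest on too few genes to be set apart from those of the whole table. The median difference of all 5 genes was -0.31 for the pre-miR-29b-1 comparison and -0.19 for the pre-miR-29a comparison. Without Ppic the medians of the relatives were -0.09 and 0.04.

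Ppib, the relative that shares the secretory pathway with Ppic, was among the most abundant transcripts. The anti-miR-29a libraries held 2530, 2717 and 2535 FPKM, the pre-miR-29b-1 libraries 1996, 2092 and 2173 FPKM, and the pre-miR-29a libraries 2081, 2543 and 2240 FPKM. The pre-miR-29b-1 libraries lay below all anti-miR-29a libraries, as 35.2% of all tested genes did. Replicate 2 of pre-miR-29a lay within the anti-miR-29a range. Ppib fell with pre-miR-29b-1 by 0.31 log2 units (SE 0.083, adjusted p 0.00899, limma). With pre-miR-29a the difference was -0.19 (SE 0.083, adjusted p 0.0786, limma), and it passed the threshold without replicate 2 of that group, at -0.26 (adjusted p 0.0109, limma). It also passed after quantile normalization, at -0.34 (adjusted p 6.23e-05, limma), and with array weights, where the difference was -0.18 (adjusted p 0.00935, limma).

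Ppif was the lowest of the relatives. The anti-miR-29a libraries held 49.6, 40.1 and 46.1 FPKM, the pre-miR-29b-1 libraries 39.6, 30.2 and 32.4 FPKM, and the pre-miR-29a libraries 33.3, 35.6 and 31.5 FPKM. All precursor libraries were below all anti-miR-29a libraries, as for 29.2% of all tested genes, but the highest pre-miR-29b-1 library stood next to the lowest anti-miR-29a library. Ppif fell by 0.40 log2 units with pre-miR-29b-1 (SE 0.106, adjusted p 0.0089, limma) and by 0.42 with pre-miR-29a (SE 0.106, adjusted p 0.00653, limma). It rested on 231 to 377 implied reads per library. Counting error alone was 5.5% to 6.13% of the mean there, and the SD between libraries 6.17% to 14.4%.

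Ppia was higher with the precursors, in the values of its single-exon model. These were 4110, 4223 and 4071 FPKM in the anti-miR-29a libraries, 5195, 4789 and 4948 FPKM in the pre-miR-29b-1 libraries, and 4842, 5599 and 5043 FPKM in the pre-miR-29a libraries. Every precursor library was above every anti-miR-29a library, which held for 25.4% of all tested genes. Ppia rose by 0.27 log2 units with pre-miR-29b-1 (SE 0.080, adjusted p 0.0172, limma) and by 0.32 with pre-miR-29a (SE 0.080, adjusted p 0.00673, limma). The first of these calls was lost without pre-miR-29b-1 replicate 1 (adjusted p 0.0724), without anti-miR-29a replicate 1 (0.0526) or replicate 3 (0.0653), and with no filter on low genes (0.0512, all limma). The gene of the table that covers the same bases held 354.5 to 395.5 FPKM with anti-miR-29a, 424.8 to 520.4 FPKM with pre-miR-29b-1 and 351.0 to 502.7 FPKM with pre-miR-29a. Added to it, Ppia differed by 0.28 (adjusted p 0.0162) and 0.31 (adjusted p 0.00786, limma).

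Ppid held 106.2, 114.7 and 115.3 FPKM in the anti-miR-29a libraries, 121.4, 119.7 and 126.3 FPKM in the pre-miR-29b-1 libraries, and 124.2, 141.9 and 141.1 FPKM in the pre-miR-29a libraries. All precursor libraries were above all anti-miR-29a libraries, an order found in 25.4% of all tested genes. Ppid rose with pre-miR-29a by 0.27 log2 units (SE 0.061, adjusted p 0.00362, limma). Its difference for pre-miR-29b-1 was 0.13 (SE 0.061, adjusted p 0.104, limma), with a 95% interval of -0.01 to 0.27. It passed the threshold after quantile normalization, at 0.22 (adjusted p 0.00501, limma), in a fit of the groups compared alone (adjusted p 0.0446) and without pre-miR-29a replicate 1 (adjusted p 0.0335, limma).

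Taking both precursors together against anti-miR-29a, all 4 relatives passed the threshold, where 32.3% of all tested genes were called lower and 29.3% higher (limma). Ppib stood at -0.25 (SE 0.072, adjusted p 0.012) and Ppif at -0.41 (SE 0.092, adjusted p 0.00303). Ppia stood at 0.29 (SE 0.069, adjusted p 0.00444) and Ppid at 0.20 (SE 0.053, adjusted p 0.00824). The Ppib call was lost without anti-miR-29a replicate 2 (adjusted p 0.0578, limma).

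**Figure D5:**
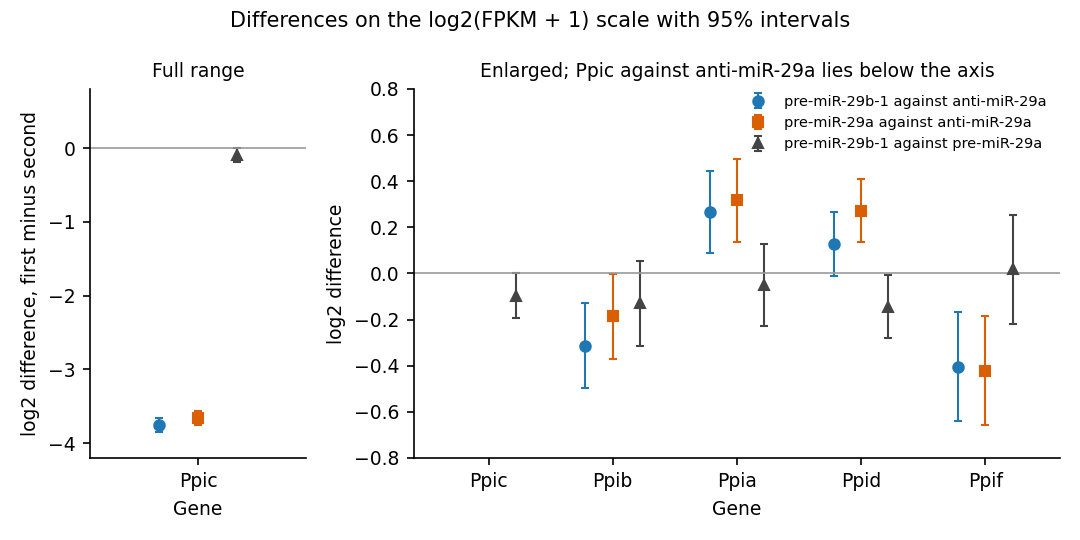
Log2 differences (first group minus second) on the log2(FPKM + 1) scale with 95% intervals from the fit, for each precursor against anti-miR-29a and between the precursors, Ppic at full range on the left and every gene on an enlarged axis on the right. Ppib and Ppif lie below 0 and Ppia and Ppid above 0 against anti-miR-29a, each within 0.5 log2 units, while Ppic lies near -3.7. The intervals of Ppic against anti-miR-29a do not allow for its choice by that fall.

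Ratios within a library do not depend on how libraries were scaled to each other. With anti-miR-29a, Ppib stood 10.3 to 11.5 times above Ppic per unit of length. With pre-miR-29b-1 it stood 121.1 to 126.0 times above, and with pre-miR-29a 112.9 to 139.7 times. Ppic stood 2.07 to 2.29 times above Ppid with anti-miR-29a and at 0.136 to 0.143 and 0.127 to 0.149 of it with the precursors. Against Ppif, Ppic went from 4.89 to 5.92 times its level to 0.416 to 0.567 and 0.512 to 0.571 times. The order of levels per length was thus Ppia, Ppib, Ppic, Ppid, Ppif with anti-miR-29a, and Ppia, Ppib, Ppid, Ppif, Ppic with either precursor. Neighbours in these orders did not overlap between genes in any group. The places of Ppia and Ppid, and the ratios of Ppic to Ppid, rest on their uncertain models.

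The relatives also shifted against each other. Ppia stood 1.56 to 1.62 times above Ppib in the anti-miR-29a libraries, 2.28 to 2.60 times with pre-miR-29b-1 and 2.20 to 2.33 times with pre-miR-29a. This ratio rests on the uncertain Ppia model. Of the summed FPKM of the 5 genes, Ppic held 3.39% ± 0.14 (SD, n = 3) with anti-miR-29a, 0.234% ± 0.0097 in the pre-miR-29b-1 group and 0.240% ± 0.021 in the pre-miR-29a group. The sum itself ranged from 7013 to 7332 FPKM with anti-miR-29a, from 7048 to 7368 FPKM with pre-miR-29b-1 and from 7099 to 8338 FPKM with pre-miR-29a. The groups overlapped in this sum. As a share of all FPKM in a library, the sum was 0.572% to 0.586% with anti-miR-29a. It was 0.599% to 0.612% with pre-miR-29b-1 and 0.609% to 0.643% with pre-miR-29a. How often other sums of 5 genes would separate the groups in this way was not tested. Ppia held 57.6% to 70.5% of the sum and Ppib 27.1% to 37.1% in a library. The sum, its share of all FPKM and the share of Ppic in it therefore rest largely on the uncertain Ppia model.

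The precursors were compared with each other, a contrast that did not choose Ppic. Of the 5 genes 0 passed the threshold (limma), against 0.0105% of all tested genes, and 1 had an unadjusted p under 0.05. Ppic differed by -0.10 (SE 0.044, adjusted p 0.302, limma), with a 95% interval of 0.873-fold to 1.00-fold. Every pre-miR-29b-1 library was below every pre-miR-29a library in Ppic, as in 8.73% of all tested genes. The interval from counting reads was wider, from 0.797-fold to 1.09-fold. Ppid differed by -0.15 (SE 0.061, adjusted p 0.292, limma), with an interval of 0.822-fold to 0.995-fold and an unadjusted p of 0.0407. It passed the threshold with array weights, at -0.21 (adjusted p 0.00474, limma), and without pre-miR-29a replicate 1, at -0.21 (adjusted p 0.0343, limma). The library weights gave that replicate 0.213, the lowest of the 9. The intervals were 0.853-fold to 1.09-fold for Ppia, 0.805-fold to 1.04-fold for Ppib and 0.859-fold to 1.19-fold for Ppif, so a difference of 1.5-fold lay outside the interval of each of the 5 genes.

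Patterns over the 9 libraries were compared after centring each gene on its own mean. The gene nearest to Ppic was ENSMUSG00000070436, with a root-mean-square difference of 0.463 log2 units. It held 3399 ± 184 FPKM (SD, n = 3) in the anti-miR-29a group, 489.6 ± 6.73 FPKM in the pre-miR-29b-1 group and 532.7 ± 14.6 FPKM in the pre-miR-29a group. Next came ENSMUSG00000031838 at 0.499, with 101.7 ± 7.68, 15.2 ± 0.60 and 14.8 ± 2.47 FPKM in the same groups. Among 9503 genes ranked by this likeness, Ppif was number 1679, Ppib 2500, Ppid 6836 and Ppia 7617. The fall against anti-miR-29a that chose Ppic makes up most of its pattern. These ranks therefore largely restate the differences from anti-miR-29a and are no separate result.

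The scaffold that carries Ppic holds 5 other genes of the table, of which 4 were tested. With pre-miR-29b-1, 2 of them fell and 0 rose, and with pre-miR-29a 2 fell and 1 rose (limma). Of all tested genes, 29.4% fell and 25.8% rose in the first comparison and 30.9% and 27.5% in the second, and 4 genes are too few to be set apart from these shares. The nearest lies 17973 bases away and was itself low, at 3.65 to 5.36 FPKM with anti-miR-29a, 0.921 to 3.28 FPKM with pre-miR-29b-1 and 1.16 to 2.42 FPKM with pre-miR-29a. It fell by 0.79 (SE 0.286, adjusted p 0.0384) and 0.93 (SE 0.286, adjusted p 0.018, limma) log2 units. On the other side the nearest gene, 53438 bases away, was listed at 0 in all 9 libraries.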

How the data were processed

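The authors deposited FPKM per gene and library. Per the submitters' processing notes, FastQC, TopHat2 2.0.13 and Cuffnorm were used. How libraries were scaled, the strand setting and any filter: not given in the sources used here. Per the file headers, the models come from mouse Ensembl release 66, its longest translation per gene placed on CriGri_1.0. Of the models, 99.86% had a length that is a multiple of 3, so lengths are coding lengths. None of the 15557 identifiers matched the 32251 genes of the RefSeq table of CriGri-PICRH-1.0 (0 matches), so the wider family could not be counted. No microRNA or protein sequence was used here. Reads were inferred from steps in low FPKM values: with the length less 200 bases, 100% of the values that stand for at most 5 reads were whole to 0.2 reads, in 852 to 1086 values per library from genes of at least 500 bases. With the full length, 54.1% to 61.8% did. The log2(FPKM + 1) values were tested with limma 3.58.1 (R 4.3.3), two-sided, all 9 libraries in 1 fit with a term per group and trended moderation. The 9504 genes whose mean reached 1 FPKM were tested, with Benjamini-Hochberg adjustment over all of them and a threshold of 0.05. The fit was also run on simulated data with independent noise of equal size in every library. That run cannot show how correlated or unequal libraries affect the calls. Exact counting intervals (Clopper-Pearson on the reads of each pair of groups) used scipy 1.17.1 and cover counting error only, since reads without molecular identifiers are not independent molecules. Named genes were the 5 cyclophilins and the 2 genes nearest to Ppic in pattern. Members and lists were chosen with earlier results of these data known. Alternatives changed the pseudocount, filter, scaling, moderation, weights, libraries in the fit, the replicate number as a block and the gene models, and left out each library in turn.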

Additional observations from a re-analysis of the deposited data

How the results depend on the processing

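Every difference of a cyclophilin from anti-miR-29a kept its direction under all alternatives run, including each scaling. Ppic stood between -3.83 (pseudocount of 0.1) and -3.49 (pseudocount of 5) with pre-miR-29b-1 and between -3.72 and -3.41 with pre-miR-29a under the same pseudocounts, which change it by construction, and at -3.77 to -3.74 and -3.67 to -3.65 without 1 library. Its share of the summed FPKM was 3.34% to 3.47%, 0.230% to 0.240% and 0.229% to 0.250% without 1 library in the anti-miR-29a, then the pre-miR-29b-1, then the pre-miR-29a group. Calls that changed for Ppia, Ppib and Ppid are given beside their results. Between the precursors, Ppia turned to 0.015 with quantile normalization and ranged from -0.095 to 0.010 without 1 library, and Ppif turned to -0.001 with array weights and ranged from -0.092 to 0.098. Genes called between the precursors numbered 1, but 184 with the replicate block, 3627 with array weights, 0 with only the groups compared, and 1 to 1378 without 1 library, the most when pre-miR-29a replicate 1 was left out. The cause was not tested. Counts against anti-miR-29a stayed within 1.5 times. Same-numbered libraries deviated together at r of -0.018 to 0.295, over 0.1 in 6 of 9 pairs. Libraries with different numbers gave r of -0.282 to 0.0914, mostly lower. The deviations were taken from the group mean and sum to 0 within a group. A higher r of same-numbered pairs therefore brings a lower r of the others, which are no separate baseline. The labels do not say what the numbers share, and the main fit has no term for them. With the replicate block no call of a cyclophilin changed. Ppia and Ppid drop out when genes are limited to 1 model with no shared bases. The sum of Ppia with the gene on its bases was chosen after seeing the data. Depth limits Ppic most, at 99 to 115 reads per precursor library.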
